A study of Homo sapiens with 26 samples.

Results

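Tumors grown in mice from KELLY cells, a long-established line of human neuroblastoma that carries extra copies of MYCN, were compared between animals given food with doxycycline and animals given control food. The members of the comparison are the 8 libraries whose labels name a KELLY tumor, 4 labelled RUNX1T1 KO with doxycycline food and 4 labelled WT with control food, of 26 libraries in the series. The labels call these tumors PDX, although the cells are a cell line. The other 18 libraries are KELLY cell cultures, and 12 of them, those with an empty vector (EV) or with the hairpin named shAMB, each with DMSO or doxycycline in 3 replicates, are used below for reference. The remaining cultures, with the hairpin sh4 and the same treatments, enter only the joint fit of the cultures and the ranges given over all cultures. Per the methods of the study, cells carrying a doxycycline-inducible short hairpin RNA against RUNX1T1 were placed under the skin of young female NOD SCID gamma mice, which lack mature lymphocytes, and doxycycline food was started once a small tumor had formed. KO in the labels therefore stands for an induced hairpin and not for a deleted gene, and the term is used here as the labels give it. The labels do not say at which time the sequenced tumors were taken, nor that each library came from a different animal, so that p-values measure the spread between these libraries. The hairpin in the tumors was the first of 2 per the study, whose methods base it on an siRNA sequence from Ambion, and the labels do not spell out the name shAMB. No tumor with an empty vector on doxycycline food was analysed here, and an effect of doxycycline in the mouse and an effect of the hairpin cannot be told apart within this set.

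RUNX1T1 (also called ETO) is a co-repressor without DNA binding of its own. It is brought to chromatin by DNA-binding proteins such as basic helix-loop-helix factors and holds histone deacetylases, the demethylase KDM1A (LSD1) and corepressors of the CoREST and NCOR families. In neuroblastoma, MYCN forms a dimer with MAX that binds E-box letters near genes of growth, and a circuit of sympathetic transcription factors keeps the cells in an immature noradrenergic state. Whether genes of growth, cell division, neuronal identity and the tumor milieu differed between the tumor groups is described below, function by function.

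Whole tumor RNA was counted per gene as RSEM expected counts, for 26485 genes, and each library held 47346063 to 62378060 counts. Levels are given as CPM (counts scaled to a library total of 1e6 after TMM normalization), and changes as log2 fold changes, KO minus control, with an edgeR quasi-likelihood test adjusted over all 15960 genes tested. A gene with an adjusted p under 0.05 is said to have risen or fallen, and all adjusted p-values are from edgeR unless another tool is named. The first principal component held 60.0% of the variance and separated the groups, while the second held 18.2% and set control replicate 1 and KO replicate 4 apart from KO replicate 1. Over 10622 genes that averaged 5 CPM or more, the deviation of a library from its group mean followed the GC content of the genes in these 3 libraries, with Pearson correlations across genes of −0.751, −0.734 and 0.699 in that order, against −0.184 to 0.484 in the other 5. Of these genes divided into 3 equal sets by GC content, the richest set lay 0.286 above the group mean in KO replicate 1 on the log2 scale (median) and at −0.308 in KO replicate 4. The share of counts in genes of small and ribosomal RNA was 10.9% ± 5.03 in controls and 11.7% ± 3.63 in KO tumors (SD, n = 4 each, exact two-sided permutation p = 0.829, smallest possible p 0.0286).

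**Figure D1:**
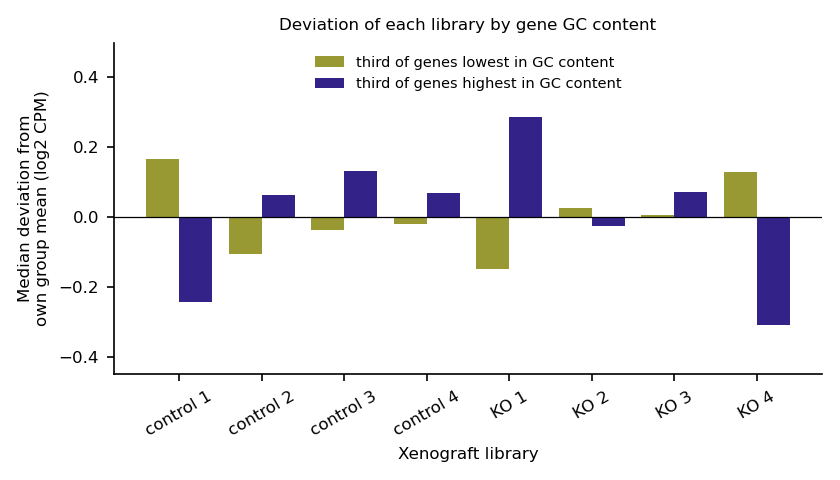
Median deviation of each of the 8 xenograft libraries from the mean of its own group (log2 CPM, vertical axis) for the lowest and the highest of 3 equal sets of genes by GC content, over genes that averaged 5 CPM or more. Control replicate 1 and KO replicate 4 are low for GC-rich genes (−0.242 and −0.308), and KO replicate 1 is high (0.286).

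RUNX1T1 itself, the gene the hairpins are directed at, is found on the minus strand of chromosome 8, from 91954972 to 92103286 in GRCh38. It was at 34.3, 43.1, 30.002 and 34.4 CPM in control replicates 1 to 4 and at 24.3, 35.2, 27.3 and 33.9 CPM in KO replicates 1 to 4. The groups overlapped and its log2 fold change of −0.23 (SE 0.146, 95% CI −0.55 to 0.09, edgeR adjusted p 0.229) did not pass the threshold. With GC content and length trends removed it did pass, at −0.44 (adjusted p 0.00291), so that the call depends on the processing. Reads of a gene do not show whether its protein was lower. The study reported loss of RUNX1T1 by immunostaining of KELLY tumors after knockdown, and the labels do not say whether those tumors were sequenced.

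Of the 19 co-repressor genes tested, 5 rose and 6 fell, against 21.2% that rose and 19.9% that fell among all 15960 genes tested. HDAC1, a histone deacetylase, fell from 92.1 ± 10.05 to 51.7 ± 2.29 CPM (log2 fold change −0.83, adjusted p 8.0e-05), and KDM1A, the histone demethylase of the complex, fell from 482 ± 45.5 to 323 ± 12.8 CPM (−0.58, adjusted p 0.000643, SD, n = 4 each), neither with overlap between the groups. The CoREST scaffold gene RCOR2 rose (0.59, adjusted p 0.0462) with overlap, and RCOR3 was at −0.25 (adjusted p 0.0562). CBFA2T2 (MTGR1), a paralog of RUNX1T1 in the ETO family, rose. It was at 71.9, 86.4, 65.4 and 69.96 CPM in control replicates 1 to 4 and at 141, 162, 153 and 141 CPM in KO replicates 1 to 4. Every KO library lay above every control library (log2 fold change 1.02, SE 0.100, adjusted p 3.8e-05). The number of co-repressor genes that rose was 2 without control replicate 1 and 3 without KO replicate 2 or control replicate 4, and the number that fell was 12 with GC content and length trends removed. That removal also raised the number that fell among all genes tested, from 3173 to 5341. RCOR2 missed the threshold without KO replicate 1, 2 or 3 or control replicate 1, 2 or 4 (0.43 to 0.62, adjusted p 0.0795 to 0.138). RCOR3 passed without KO replicate 4 (−0.33, adjusted p 0.019). RCOR3 passed with GC content and length trends removed (−0.30, adjusted p 0.00304).

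Across the genome, 6555 of 15960 genes (41.1%) passed the threshold, 3382 higher (21.2%) and 3173 lower (19.9%) in KO tumors, and 7782 had an unadjusted p under 0.05. A change of at least 2-fold was seen in 2002 (12.5%), of which 1487 were higher (9.32% of genes tested) and 515 lower (3.23%). With GC content and length trends removed, 3353 were higher and 5341 lower, that is 38.6% of the calls were higher instead of 51.6%, and the median over all genes tested moved (log2) from 0.02 to −0.09. With the GC content trend alone removed, 3410 were higher and 5236 lower (median −0.09). Counts of list members in either of these fits are to be read against these totals. Counts without such removal are to be read against the 21.2% and 19.9% above. The KO and control libraries did not overlap at all for 36.7% of genes. The direction went with the level of a gene. Of 2466 genes with a mean under 1 CPM, 724 rose and 102 fell, whereas of 2255 genes with at least 100 CPM, 410 rose and 663 fell. It also went with transcript length. When the 10622 genes above were divided into 4 sets by length, in the set with the shortest transcripts (median 1487 bases), 916 fell and 198 rose with a median of −0.23, and in the set with the longest (median 6532 bases) 493 fell and 749 rose with a median of 0.07. Ribosomal protein and respiratory subunit genes are short, and neuronal genes are often long, and values with the length trend removed are given beside those lists.

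**Figure D2:**
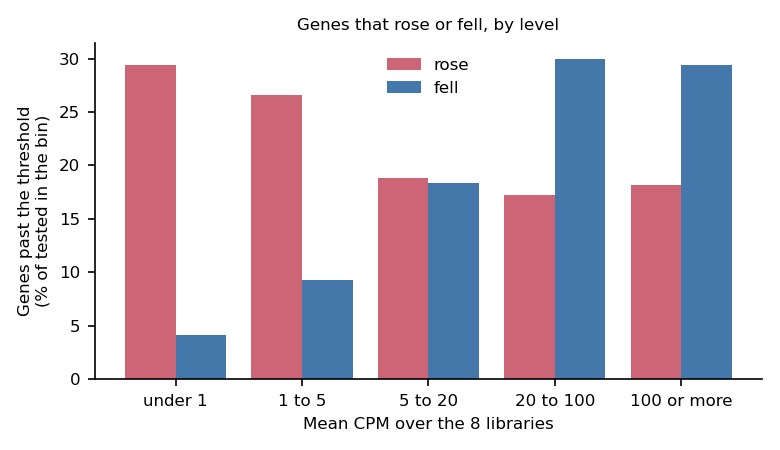
Share of genes that rose or fell past the threshold (percent of the genes tested in each bin, vertical axis) by mean CPM over the 8 xenograft libraries (horizontal axis). In the lowest bin 29.4% rose and 4.14% fell, and in the highest bin 18.2% rose and 29.4% fell.

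The 12 largest rises among the genes ranked were those of ARC, NEB, HMCN2, LONRF2, MEG3, EGR1, PI15, ABCG1, ASS1, SSTR2, PLXNA4 and CSRNP1. To be ranked, a gene had to average 10 CPM or more over all 8 libraries, without overlap between the groups. A gene high in either group alone can pass this limit, and its fold is then taken against a low level. ARC, an activity-regulated synaptic gene, was at 1.11, 2.10, 1.97 and 2.41 CPM in control replicates 1 to 4 and at 21.5, 24.4, 25.2 and 12.5 CPM in KO replicates 1 to 4 (log2 fold change 3.46, SE 0.282, adjusted p 1.3e-05). MEG3, an imprinted long non-coding RNA, was at 3.33, 4.29, 3.58 and 3.06 CPM in controls and 26.1, 35.2, 27.5 and 22.4 CPM in KO tumors (2.96, adjusted p 3.3e-06). These 2 genes were low in every control library and at several times that level in every KO library. The absence of overlap was a condition of the ranking and is not a separate result. ASS1, the argininosuccinate synthase of the urea cycle, was the most abundant of the 12 and rose from 70.5 ± 8.69 to 471 ± 100.1 CPM (2.74, adjusted p 3.3e-06, SD, n = 4 each). PLXNA4, a semaphorin receptor of axon guidance, was at 24.4, 32.2, 29.98 and 28.2 CPM in controls and 166, 209.9, 187 and 154 CPM in KO tumors (2.64, SE 0.124, adjusted p 2.6e-06). SSTR2, a somatostatin receptor, rose from 8.39 ± 0.780 to 52.95 ± 19.5 CPM (2.66, adjusted p 3.5e-05). The cholesterol exporter gene ABCG1 rose by 2.83 (adjusted p 5.3e-06), the giant muscle protein gene NEB by 3.45 (1.0e-05) and LONRF2 by 3.15 (1.9e-05). The values of HMCN2, PI15 and CSRNP1 were 3.42, 2.85 and 2.60.

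The 12 largest falls by the same rule were those of PCDH19, LCP1, PHGDH, KIAA0101, PPP1R3B, SLC25A1, STMN1, CLSTN2, CCDC167, DKK1, DANCR and GM2A. PCDH19, a protocadherin of neuronal adhesion, was at 62.3, 71.9, 54.1 and 64.2 CPM in control replicates 1 to 4 and at 13.3, 7.86, 8.88 and 8.59 CPM in KO replicates 1 to 4 (log2 fold change −2.71, adjusted p 4.2e-06). STMN1 (stathmin), which destabilizes microtubules and is abundant in dividing neural cells, was at 1112, 836, 1001 and 1031 CPM in controls and 212, 218, 229 and 262 CPM in KO tumors (−2.11, SE 0.116, adjusted p 2.6e-06). In both cases the highest KO library lay far below the lowest control. PHGDH, the first enzyme of serine synthesis, fell from 115 ± 14.1 to 23.3 ± 7.73 CPM (−2.31, adjusted p 2.1e-05, SD, n = 4 each), and KO replicate 1 was the highest of its group at 34.3 CPM. The actin-bundling gene LCP1 fell from 149.7 ± 17.2 to 29.6 ± 6.53 CPM (−2.34, adjusted p 5.0e-06), and exons on the other strand overlap 19.01% of its exon sequence. DKK1, a secreted Wnt antagonist, fell by 2.001 (0.000104), the mitochondrial citrate carrier gene SLC25A1 fell by 2.12 (0.000125) and the lysosomal activator gene GM2A fell by 1.93 (6.5e-06). DANCR, a long non-coding RNA that hosts small nucleolar RNAs, fell from 84.6 ± 9.49 to 21.8 ± 2.77 CPM (−1.96). KIAA0101 (PCLAF), a partner of PCNA, fell by 2.29, but 29.3% of its exon sequence is shared with another gene on the same strand and its level is uncertain. The values of PPP1R3B, CLSTN2 and CCDC167 were −2.12, −2.06 and −2.04.

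**Figure D3:**
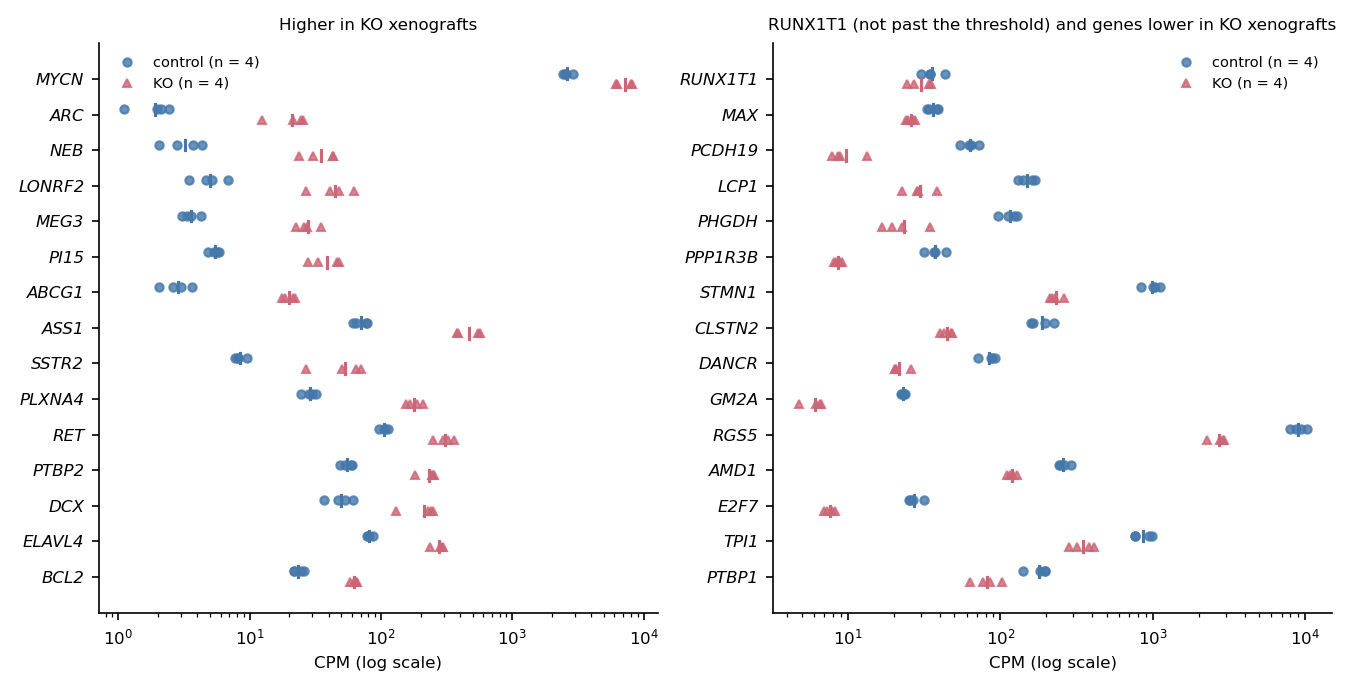
CPM of 30 genes in each xenograft library (log axis), with control libraries as circles, KO libraries as triangles and group means as short vertical lines (n = 4 each). RUNX1T1 overlaps between the groups, and the groups do not overlap for any other gene drawn.

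Within the MYC and MAX network, 3 of 11 genes tested rose and 3 fell (27.3% each, against 21.2% and 19.9% of all genes tested). With GC content and length trends removed 5 fell. MYCN, the amplified oncogene of these cells, was at 2508, 2433, 2887 and 2552 CPM in control replicates 1 to 4 and at 6242, 8064, 8211 and 6112 CPM in KO replicates 1 to 4. All KO libraries were above all control libraries (log2 fold change 1.46, SE 0.139, adjusted p 3.1e-05). MAX, its dimer partner, was at 34.1, 32.9, 38.7 and 38.6 CPM and at 27.4, 24.8, 26.9 and 24.2 CPM (−0.48, adjusted p 0.00234), again without overlap, and exons on the other strand overlap 16.1% of its exon sequence. Of the genes for other partners of MAX or MLX, MXD1, a repressor that competes with MYC proteins for MAX, rose by 0.76 (adjusted p 0.0039), whereas MXI1, of the same family, fell (−0.54, adjusted p 0.00139), as did MLX (−0.69, adjusted p 0.000138, with 18.2% of its exons overlapped on the other strand). MYC itself did not pass the filter on low counts.

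The MYC target list held 67 genes of growth, all tested, of which 30 fell and 2 rose, with a median log2 fold change of −0.26 against 0.02 over all genes tested. The fall was uneven. AMD1, an enzyme of polyamine synthesis, fell from 259 ± 21.9 to 119 ± 7.77 CPM (−1.12, adjusted p 1.1e-05, SD, n = 4 each), whereas ODC1, the rate-limiting enzyme of the same pathway and a standard MYC target, was at 930.0, 719, 896 and 921 CPM in controls and 853, 1044, 1139 and 1080.1 CPM in KO tumors (0.25, adjusted p 0.128). CAD, which starts pyrimidine synthesis, was at −0.04 (adjusted p 0.845). CAD passed with GC content and length trends removed (−0.33, adjusted p 0.00176). The nucleolar genes NCL and NPM1 were at −0.28 (adjusted p 0.0435) and −0.26 (adjusted p 0.122), of which NCL passed the threshold. EIF4A1, a translation helicase, fell by 1.02, with 47.4% of its exon sequence shared with other genes on the same strand, and EIF2S1, a subunit of initiation factor eIF2, rose (0.41, adjusted p 0.0138). With the GC content trend alone removed, 46 fell and 2 rose, and without the 3 libraries of strongest GC trend 30 fell and 4 rose. NCL missed the threshold without KO replicate 1, 2 or 4 or control replicate 1, 3 or 4 (−0.30 to −0.26, adjusted p 0.0617 to 0.120). NPM1 passed without control replicate 2 (−0.36, adjusted p 0.0144). ODC1 passed without KO replicate 1 (0.32, adjusted p 0.0353).

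MYC and MAX dimers bind the E-box letters CACGTG best. These letters, which read the same on both strands, were looked for in RefSeq promoter windows (GRCh38.p14, 250 bases before to 50 after each start). Of 27305 promoters in the table, 7.43% hold them, and of those of the genes tested, 8.95% of those that rose, 10.9% of those that fell and 9.87% of those not past the threshold. In the MYC target list 20 of 54 genes with a window hold them (37.0%), and of these 8 fell and 12 did not pass the threshold, while of the 34 without them 15 fell. AMD1, CAD, EIF2S1, EIF4A1, NCL, NPM1 and ODC1 have no match in this window. The 4 windows below, chosen after the values were seen as the members with a match and the largest falls, show 30 bases 5′ to 3′ on the strand of the gene, with the E-box in capitals.
FBL: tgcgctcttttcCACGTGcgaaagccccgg
CDK4: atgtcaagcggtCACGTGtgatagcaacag
MCM7: agtggcgccggtCACGTGgggggcgacgtt
MCM2: gctttggtgggtCACGTGaaccacttttcg
The FBL window lies at chr19:39846356-39846385 (minus strand), with the E-box starting 6 bases past the start of the gene. That of CDK4 is at chr12:57752509-57752538 (minus strand) and is the first of 3 matches in its promoter, that of MCM7 at chr7:100101405-100101434 (minus strand) and that of MCM2 at chr3:127598388-127598417 (plus strand). FBL, the methyltransferase of ribosomal RNA, fell from 188 ± 13.3 to 119.9 ± 10.2 CPM (−0.65, adjusted p 0.000277). CDK4, the kinase of the G1 phase, fell from 202 ± 13.1 to 131 ± 16.7 CPM (−0.63, adjusted p 0.000739), with 44.2% of its exons overlapped on the other strand. The replicative helicase genes MCM7 and MCM2 were at −0.57 (adjusted p 0.0037) and −0.56 (adjusted p 0.00339), with 23.6% of the exons of MCM2 overlapped on the other strand. The match is a description of the letters and does not show binding.

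Most cytosolic ribosomal protein genes were lower in KO tumors. Of 81 cytosolic ribosomal protein genes tested, 61 fell and the other 20 did not pass the threshold, all 81 had a log2 fold change below 0, and the median was −0.49 against 0.02 over all genes tested. With GC content and length trends removed 62 fell and the median was −0.43. RPS6 fell from 1664 ± 181 to 1105 ± 82.1 CPM (−0.59, adjusted p 0.00161). RPL3 fell by 0.62 (adjusted p 0.0156), with KO replicate 1 at 1082 CPM inside the range of the controls. At a mean of at least 5 CPM the largest falls of the list were RPLP2 (−1.79, adjusted p 0.000271) and RPS10 (−1.69, adjusted p 3.4e-05), and 31.5% of the exon sequence of RPS10 is shared with another gene. Pseudogenes of ribosomal proteins are numerous, and counts of these genes are therefore uncertain. Of 78 mitochondrial ribosomal protein genes, 26 fell and 1 rose (median −0.23). MRPS12 fell by 0.91 (adjusted p 0.000762) and MRPS34 fell by 1.11 (0.00198), and 31.2% of the exon sequence of MRPS34 is overlapped by exons on the other strand. With the GC content trend alone removed 47 fell, and with length removed as well 32 fell and 5 rose. RPL3 did not pass without KO replicate 2 (−0.55, adjusted p 0.0532).

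Of 77 nucleolar genes of ribosome assembly 19 fell (24.7%) and 2 rose (2.60%), with a median of −0.09. Among all genes tested 19.9% fell and 21.2% rose. FBL fell, as given above with its sequence, NHP2 fell by 0.69 (adjusted p 0.00191, with 28.05% of its exon sequence overlapped on the other strand), and RRN3, which recruits RNA polymerase I, rose from 108 ± 11.7 to 169 ± 14.5 CPM (0.65, adjusted p 0.000582). DKC1 and POLR1B were at 0.01 and −0.17 and did not pass the threshold. POLR1B passed with GC content and length trends removed (−0.29, adjusted p 0.00578). The number that fell was 39 with GC content and length trends removed (median −0.19) and 12 without KO replicate 2, and 1 gene rose without KO replicate 2 or 3 or control replicate 1, 2 or 4. Of 46 translation factor genes 20 fell and 3 rose (median −0.22). EIF4EBP2, a repressor of cap-dependent initiation, fell from 250.3 ± 31.04 to 98.4 ± 5.80 CPM (−1.35, adjusted p 9.5e-06), GSPT1, the termination factor eRF3a, fell by 0.92 (6.6e-05) and EIF3F fell by 1.17 (1.2e-05). EIF3D rose (0.57, 0.00116), as did EIF2B4 (0.77, 0.000195). The number of translation factor genes that rose was 5 without KO replicate 1. Of 23 aminoacyl-tRNA synthetase genes 9 fell and 1 rose, with AARS, which charges alanine tRNA, at −0.93 (adjusted p 0.0001).

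Enzymes that make nucleotides, serine and one-carbon units are described next. Of 29 purine and pyrimidine synthesis enzymes, 18 fell and 1 rose (median −0.37). PAICS, of purine synthesis, was at 671, 509.8, 577 and 603 CPM in control replicates 1 to 4 and 338, 333, 352 and 372 CPM in KO replicates 1 to 4 (−0.76, adjusted p 0.000195), with no overlap. IMPDH1, of guanine nucleotide synthesis, fell by 1.11 (0.00218). Of 27 serine, one-carbon and polyamine genes 13 fell and 2 rose (median −0.26), with 4 that rose without KO replicate 1 and 1 without KO replicate 3. PHGDH, given above, had the largest fall at a mean of at least 5 CPM, followed by SHMT1, a serine hydroxymethyltransferase, from 38.5 ± 3.50 to 13.1 ± 2.45 CPM (−1.56, adjusted p 2.3e-05). Its mitochondrial counterpart SHMT2 was at 90.9, 95.7, 132 and 109 CPM in controls and 88.4, 34.7, 39.2 and 33.5 CPM in KO tumors (−1.13, adjusted p 0.00921), where KO replicate 1 stood close to the controls and the other 3 well below.

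Of 76 nuclear-encoded respiratory subunits, 31 fell and the other 45 did not pass the threshold (median −0.29), and with GC content and length trends removed 33 fell (51 with GC content alone). NDUFB10, of complex I, fell from 32.2 ± 4.99 to 12.3 ± 1.94 CPM (−1.38, adjusted p 6.6e-05), and COX5A, of complex IV, fell by 0.46 (0.00923). NDUFS8 was at −0.15 and did not pass. Of 35 proteasome subunit genes 19 fell and the rest did not pass (median −0.31), among them PSMB5, a catalytic subunit, from 179 ± 18.7 to 78.7 ± 7.43 CPM (−1.18, adjusted p 1.9e-05), and PSMB4 (−1.19, 6.3e-05). Of 27 chaperonin and heat shock genes 8 fell and 1 rose (4 rose without the 3 libraries of strongest GC trend). The mitochondrial chaperone TRAP1 fell by 1.49 (7.1e-05) with 28.5% of its exons overlapped on the other strand, HSP90B1 of the endoplasmic reticulum fell by 0.88 (0.000729) and HSPH1 rose by 0.84 (0.0061).

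Of 39 hypoxia and glycolysis genes 17 fell and 5 rose (median −0.52). The glycolytic enzyme TPI1 was at 764, 765, 988 and 939.9 CPM in control replicates 1 to 4 and 413, 318, 383 and 284 CPM in KO replicates 1 to 4 (−1.31, adjusted p 6.5e-05). LDHA, lactate dehydrogenase, fell by 0.52 (0.00419) and ALDOC fell by 1.33 (0.000424). The genes that rose included PFKFB3, an activator of glycolysis (0.95, 0.00159). VEGFA, the hypoxia-induced growth factor of vessels, was at 0.11 (adjusted p 0.702) and CA9 was at or under 1.58 CPM in every library. Of 27 cholesterol synthesis and uptake genes 15 fell and the others did not pass (median −0.53). ACAT2 fell from 103 ± 12.96 to 35.2 ± 3.73 CPM (−1.55, adjusted p 8.4e-06) with 22.2% of its exons overlapped on the other strand. CA9 passed without KO replicate 1 (−1.53, adjusted p 0.0318).

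Cell cycle genes were grouped by phase. Of 58 E2F-driven replication genes, 51 fell and the other 7 did not pass the threshold, all 58 had a log2 fold change below 0, and the median was −0.61. E2F7, a feedback member of the E2F family, was at 26.8, 31.3, 25.5 and 25.04 CPM in control replicates 1 to 4 and 6.99, 7.86, 7.33 and 8.19 CPM in KO replicates 1 to 4 (−1.84, adjusted p 4.3e-06). PCNA, the sliding clamp of replication, was at 235, 186, 229 and 259 CPM and 147, 144, 156 and 155 CPM (−0.60, adjusted p 0.00101). Both were lower in every KO library than in any control. E2F1 fell from 88.5 ± 9.36 to 50.5 ± 10.2 CPM (−0.81, 0.00112), and POLD2, a subunit of DNA polymerase delta, fell by 1.67 (0.000126). Between 43 and 50 of these genes fell when 1 library was left out, and 57 with GC content and length trends removed.

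Of 58 G2 and mitosis genes 27 fell and 1 rose, with a median of −0.29. MYBL2, which drives G2 genes, fell by 1.53 (adjusted p 0.000815), and the kinetochore gene SPC25 fell from 24.2 ± 2.29 to 12.1 ± 1.40 CPM (−1.0002, 0.000118). RACGAP1, of cytokinesis, rose by 0.55 (0.00449). The proliferation marker MKI67 (Ki67) was at 862, 1027, 640.4 and 871 CPM in control replicates 1 to 4 and 544, 671, 642 and 780.5 CPM in KO replicates 1 to 4. Control replicate 3 lay as low as the KO libraries and the difference did not pass the threshold (−0.37, SE 0.152, adjusted p 0.0765). MKI67 passed without KO replicate 4 or control replicate 3 (−0.49 to −0.46, adjusted p 0.0206 to 0.0343). MKI67 passed with GC content and length trends removed (−0.66, adjusted p 0.000115). Without a filter on low counts it passed as well (−0.43, adjusted p 0.0379). AURKA and CCNB1 were at 0.13 and −0.11 (adjusted p 0.394 and 0.535). Of 21 G1 genes 5 rose (23.8%) and 6 fell (28.6%), against 21.2% and 19.9% of all genes tested. CCND1, cyclin D1, was at 168, 149, 159.9 and 158 CPM in controls and 127, 111, 113 and 109.6 CPM in KO tumors (−0.46, adjusted p 0.0011) and CDK2 fell by 0.66 (0.000369, 16.8% overlapped on the other strand), while CDKN1B, the inhibitor p27, rose by 0.38 (0.0112). The number of G1 genes that rose was 2 without KO replicate 2 or control replicate 3 and 3 without each of the other libraries, and 10 fell with GC content and length trends removed.

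Of 56 replication-dependent histone genes, 17 fell and the rest did not pass the threshold, with a median of −0.52. This count depended on single libraries. It was 35 without KO replicate 1, 30 without control replicate 1, 50 without the 3 libraries of strongest GC trend, 8 without KO replicate 2 or control replicate 4, 9 without control replicate 3 and 11 without KO replicate 3. The median lay between −0.84 and −0.31 with 1 library left out and at −0.85 without those 3 libraries. HIST1H2BD, whose transcript can carry a poly(A) tail, fell from 171 ± 27.7 to 65.2 ± 15.5 CPM (−1.39, adjusted p 0.000117).

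Markers of the tumor cells were present in every library, and the sympathetic identity genes moved both ways. Of 14 sympathetic transcription factor genes tested 5 rose (35.7%) and 3 fell (21.4%, median 0.02), against 21.2% and 19.9% of all genes tested. KLF7 was at 158, 156, 129 and 141 CPM in control replicates 1 to 4 and 233, 309, 281 and 297 CPM in KO replicates 1 to 4 (0.94, adjusted p 9.2e-05), a rise without overlap. GATA3 was at 0.09 (adjusted p 0.735), GATA2 fell by 0.69 (0.0172) with KO replicate 1 among the controls, and INSM1 rose by 1.02 (0.000717). INSM1 did not pass with GC content and length trends removed (0.73, adjusted p 0.0594). In that fit 2 of these genes rose and 6 fell (median −0.12), while 3 rose without KO replicate 2 or 3 or control replicate 2, 3 or 4, and 1 fell without KO replicate 2. GATA2 missed the threshold without KO replicate 2 (−0.60, adjusted p 0.0554).

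Of 16 catecholamine and granin genes 5 rose (31.25%) and 4 fell (25.0%), against 21.2% and 19.9% of all genes tested. The enzymes of noradrenaline synthesis overlapped between the groups. TH was at 11.1, 25.9, 36.04 and 22.2 CPM in controls and 59.4, 22.6, 30.99 and 9.67 CPM in KO tumors (0.36, adjusted p 0.570) and DBH at −0.51 (adjusted p 0.297). TH was highest in KO replicate 1 and lowest in KO replicate 4. DBH passed without KO replicate 1 (−0.97, adjusted p 0.0226). DBH passed with GC content and length trends removed (−0.87, adjusted p 0.00282). SCG2, secretogranin II, was at 33.9, 25.9, 23.4 and 28.7 CPM in control replicates 1 to 4 and 68.95, 146, 130.2 and 115 CPM in KO replicates 1 to 4 (2.04, adjusted p 4.8e-05), and VGF rose by 1.98 (6.3e-05). MAOA, which degrades catecholamines, fell from 427 ± 69.2 to 211 ± 18.8 CPM (−1.01, 0.000127). Of 18 mesenchymal state genes 6 fell and 1 rose. VIM (vimentin) fell by 0.997 (0.000187, with 24.6% of its exons overlapped on the other strand) and FN1 (fibronectin) fell by 0.80 (0.000369), and CD44, the member that rose, was at 7.47, 11.97, 5.89 and 8.50 CPM in controls and 10.8, 21.9, 22.95 and 19.4 CPM in KO tumors (1.15, 0.005), with KO replicate 1 among the controls. The number that rose was 3 without KO replicate 1, 2 without KO replicate 4 and 4 with the GC content trend alone removed.

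Neuronal genes were described in several lists. Of 29 synaptic vesicle and release genes 13 rose (44.8%, against 21.2% of all genes tested) and 1 fell (median 0.33), and of 26 voltage-gated channel genes 11 rose (42.3%) and 1 fell (median 0.39). SNAP25, of the vesicle fusion complex, was at 59.5, 37.8, 50.4 and 46.7 CPM in control replicates 1 to 4 and 74.7, 94.6, 92.7 and 96.7 CPM in KO replicates 1 to 4 (0.88, adjusted p 0.00054). CACNA1D, a calcium channel subunit, rose from 19.7 ± 3.27 to 66.4 ± 8.07 CPM (1.75, 1.0e-05) and CACNA2D2 by 1.70 (1.1e-05). SYP, the vesicle protein synaptophysin, fell by 0.40 (0.0331) and SYT1 was at 0.20 (adjusted p 0.165). With GC content and length trends removed 13 synaptic genes rose and 6 fell (median 0.16), and 12 channel genes rose and 5 fell (median 0.18). In that fit the median over all genes tested was −0.09. No synaptic gene passed as lower without KO replicate 2 or 4 or control replicate 2 or 4, and 2 channel genes fell without KO replicate 1. SYP missed the threshold without KO replicate 2 or 4 or control replicate 2, 3 or 4 (−0.41 to −0.29, adjusted p 0.0549 to 0.0948).

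Of 26 neuronal cytoskeleton and growth cone genes 8 rose and 8 fell (30.8% each, median −0.20), against 21.2% and 19.9% of all genes tested. DCX, doublecortin of migrating neurons, was at 46.8, 61.5, 36.6 and 53.5 CPM in control replicates 1 to 4 and 131, 240.3, 228 and 250.2 CPM in KO replicates 1 to 4 (2.10, adjusted p 4.4e-05). ELAVL4 (HuD), a neuronal RNA-binding protein, rose from 81.3 ± 3.80 to 276 ± 25.999 CPM (1.76, 2.6e-06) and MAPT (tau) from 29.8 ± 1.81 to 65.3 ± 3.29 CPM (1.13, 8.4e-06). STMN1 fell, as above, and the neuronal tubulin gene TUBB3 was at 66.7, 117, 167 and 142 CPM in controls and 66.5, 32.1, 39.8 and 17.6 CPM in KO tumors (−1.66, 0.00436), with 21.3% of its exon sequence shared with another gene. GAP43 and NEFL were at −0.15 and −0.27 and did not pass. The number that rose was 5 without KO replicate 3, and with GC content and length trends removed 7 rose and 12 fell (median −0.27). GAP43 passed without control replicate 2 (−0.28, adjusted p 0.0345). NEFL passed without control replicate 2 (−0.38, adjusted p 0.0266). NEFL passed with GC content and length trends removed (−0.38, adjusted p 0.0142).

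Among receptors of neurotrophic factors, RET, the signaling receptor of the GDNF family, was at 96.5, 106, 113 and 107 CPM in control replicates 1 to 4 and 359, 298, 324 and 250.3 CPM in KO replicates 1 to 4 (1.54, SE 0.114, adjusted p 8.4e-06). The groups did not overlap. ALK was at 0.18 (adjusted p 0.198), and the GDNF co-receptor gene GFRA3 fell by 1.41 (0.000238). Of the 13 genes of this list 5 rose (38.5%) and 2 fell (15.4%), against 21.2% and 19.9% of all genes tested. With GC content and length trends removed 5 of them fell, in a fit where 5341 of all genes tested fell. Without KO replicate 2 or control replicate 3 or 4, 1 fell.

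The splicing factors held a pair of paralogs that moved in opposite directions. PTBP1, which represses neuronal exons in dividing cells, was at 141, 181, 196 and 196 CPM in control replicates 1 to 4 and 102, 76.7, 85.6 and 62.997 CPM in KO replicates 1 to 4 (−1.13, SE 0.152, adjusted p 0.000236). PTBP2, its neuronal paralog, was at 58.6, 60.6, 48.8 and 53.04 CPM and 182, 247, 247 and 253 CPM (2.07, SE 0.123, adjusted p 3.4e-06). PTBP1 was higher than in any KO library in each control, and PTBP2 was lower. NOVA1, a neuronal splicing factor, rose by 0.96 (0.00296), and SRRM4 was at 0.39 (adjusted p 0.0571). Of 56 spliceosome and hnRNP genes in all, 20 fell and 6 rose (median −0.20), with 3 that rose without KO replicate 2 and 31 that fell with the GC content trend alone removed. SRRM4 passed without KO replicate 1 or control replicate 2 (0.45 to 0.51, adjusted p 0.0165 to 0.0361).

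Of 30 Polycomb subunit genes 9 rose and 7 fell (median 0.01). EZH2, the H3K27 methyltransferase, was at 201, 161, 186 and 183 CPM in control replicates 1 to 4 and 137, 144, 148 and 158 CPM in KO replicates 1 to 4 (−0.32, adjusted p 0.0156), SUZ12 was at 0.16 (adjusted p 0.364) and JARID2, an accessory subunit, rose from 98.01 ± 2.84 to 176 ± 16.7 CPM (0.85, 4.4e-05). SCMH1 fell by 1.19 (2.7e-05). The number that fell was 12 with GC content and length trends removed and 3 without KO replicate 2. EZH2 missed the threshold without KO replicate 2 (−0.31, adjusted p 0.0513). SUZ12 passed without KO replicate 1 (0.28, adjusted p 0.0459). Of 93 developmental regulators that Polycomb holds silent in embryonic cells, 36 passed the filter on low counts, which a gene high in either group can pass. Of these 15 rose (41.7%) and 3 fell (8.33%, median 0.27). With GC content and length trends removed 14 rose and 5 fell (median 0.12). NEUROD1, a neuronal differentiation factor, rose from 6.57 ± 0.760 to 19.8 ± 4.29 CPM (1.59, 7.1e-05), NKX6-1 rose by 1.08 (0.00108) and POU4F1 fell by 0.91 (5.9e-05, with 27.7% of its exons overlapped on the other strand). Of 39 HOX cluster genes 14 were tested, and 5 rose (35.7%) while the other 9 did not pass, HOXC8 with 0.84 (0.000364) and HOXD9 with 0.19 (adjusted p 0.289).

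**Figure D4:**
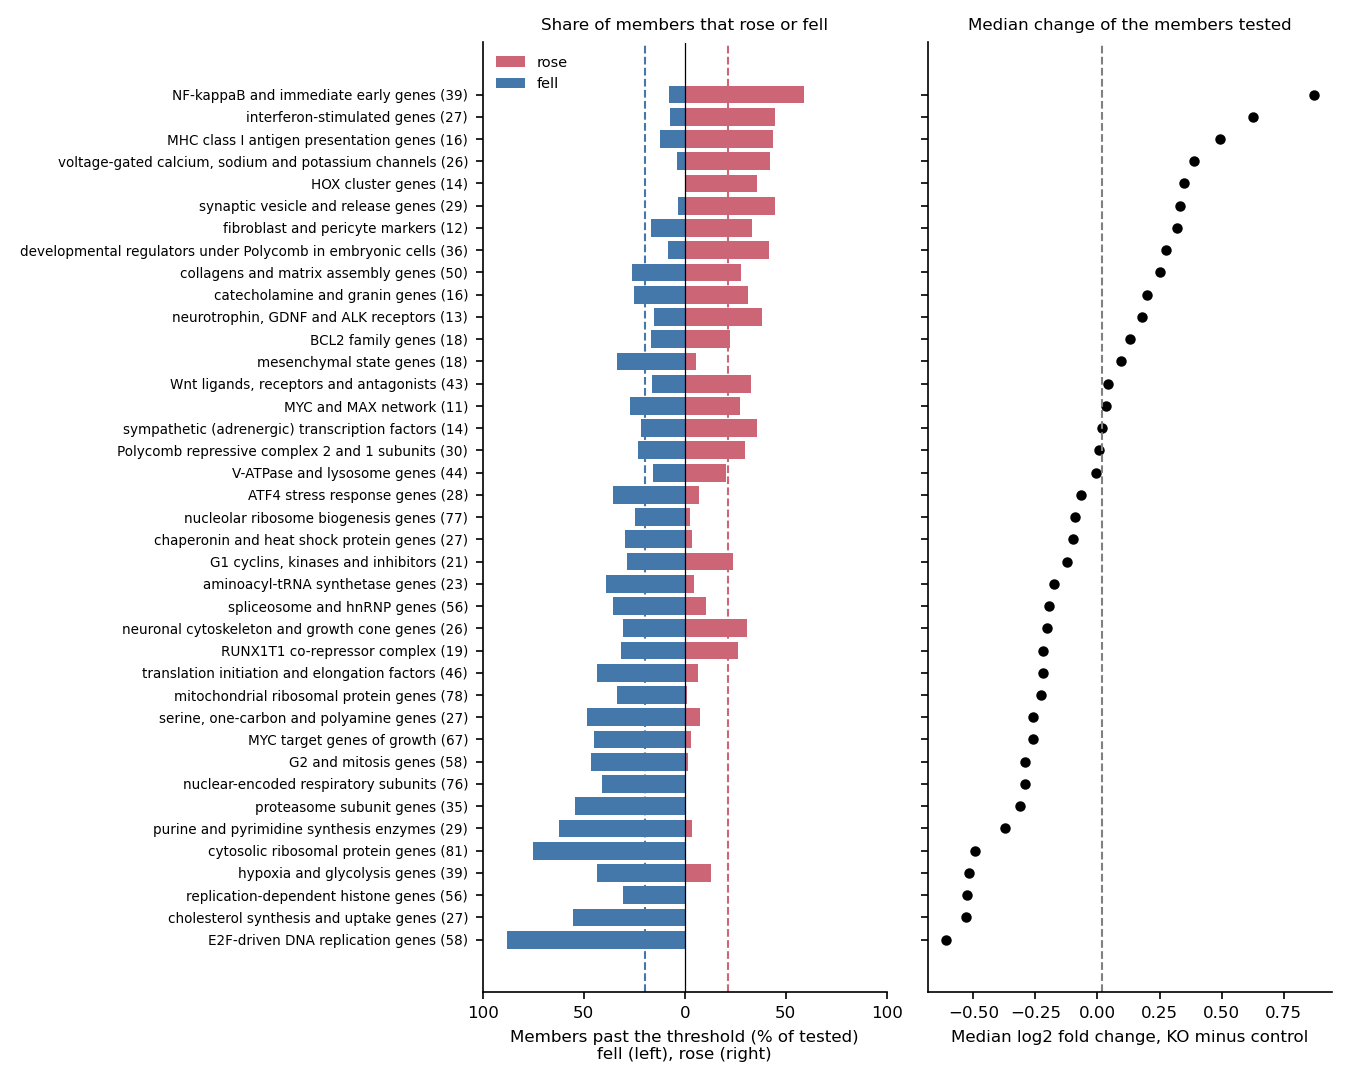
The gene lists drawn each had at least 10 members tested (number in parentheses), and not every such list is drawn. The left panel shows the percent of members that fell (left of 0) and rose (right of 0). The right panel shows the median log2 fold change, KO minus control. Dashed lines stand for all 15960 genes tested (21.2% rose, 19.9% fell, median 0.02). The medians drawn run from −0.61 for E2F-driven replication genes to 0.87 for NF-kappaB and immediate early genes.

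Genes of signaling and of the immune response include the list with the highest median. Of 50 NF-kappaB and immediate early genes 39 passed the filter on low counts, which a gene high in either group can pass. Of these 23 rose (59.0%) and 3 fell (7.69%), against 21.2% and 19.9% of all genes tested. Their median of 0.87 was the highest of the lists with at least 10 genes tested. Among the members not tested, CXCL8 had 0 counts in control libraries and at most 2 in KO libraries, and ICAM1 had at most 10 and 9. EGR1, a growth factor-induced transcription factor, was at 5.06, 2.71, 0.806 and 2.27 CPM in control replicates 1 to 4 and 11.3, 25.5, 22.5 and 24.5 CPM in KO replicates 1 to 4 (2.96, SE 0.453, adjusted p 0.000505). FOS was at 4.84, 3.50, 1.81 and 2.93 CPM and 10.1, 15.4, 14.8 and 10.1 CPM (1.95, adjusted p 0.000344). DUSP5, a phosphatase of ERK, rose from 6.48 ± 0.466 to 36.2 ± 9.32 CPM (2.48, 8.6e-06). The groups of these 3 genes did not overlap. JUND and NR4A3 fell (−0.65 and −0.88). JUND did not pass with GC content and length trends removed (−0.98, adjusted p 0.0554). NFKBIA, the feedback inhibitor of NF-kappaB, was at 0.01 (adjusted p 0.944). Between 22 and 25 members rose when 1 library was left out.

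Of 48 interferon-stimulated genes 27 passed the filter on low counts, which a gene high in either group can pass. Of these 12 rose (44.4%) and 2 fell (7.41%, median 0.62), against 21.2% and 19.9% of all genes tested. Among the members not tested, ISG15 had at most 1 count in control libraries and 7 in KO libraries, and MX1 had 0 in all. STAT2, a transducer of the interferon signal, fell from 29.5 ± 2.61 to 16.1 ± 2.35 CPM (−0.87, 0.000316). DDX58, which encodes the RNA sensor RIG-I, rose by 1.47 (6.0e-05), with 43.2% of its exon sequence shared with another gene, LGALS3BP rose by 1.95 (0.00104) and IFIT1 by 0.42 (0.0476). IFIT1 missed the threshold without KO replicate 2, 3 or 4 or control replicate 2, 3 or 4 (0.35 to 0.42, adjusted p 0.0814 to 0.148). Of 22 genes of MHC class I antigen presentation 16 passed the filter. Of these 7 rose (43.75%) and 2 fell (12.5%, median 0.49), and 4 fell with the GC content trend alone removed (median 0.26). The peptide transporter gene TAP1 was not tested, with at most 4 counts in control libraries and 3 in KO libraries. TAPBP, tapasin, rose by 1.26 (0.000312, with 21.01% of its exons overlapped on the other strand) and PSME1 by 0.79 (0.00177), while the class I light chain gene B2M was at 0.06 (adjusted p 0.757). The summed leukocyte and macrophage markers, given below, also moved with the groups (1.84 to 2.22 CPM in controls, 4.27 to 5.38 CPM in KO tumors), most of the difference being in the gene MRC1, and their part in the immune lists was not tested. The chaperone gene CALR fell by 0.89 and CANX fell by 0.64.

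The cell cycle inhibitor gene CDKN1A and the ubiquitin ligase gene MDM2 were at 0.35 and −0.26 and did not pass (adjusted p 0.248 and 0.0583), and DDB2, of the recognition of damaged DNA, rose by 0.62 (0.00205). Of 18 BCL2 family genes 4 rose (22.2%) and 3 fell (16.7%), close to the 21.2% and 19.9% of all genes tested. BCL2, the inhibitor of apoptosis, was at 25.8, 24.5, 21.6 and 21.9 CPM in control replicates 1 to 4 and 64.5, 65.6, 62.4 and 58.3 CPM in KO replicates 1 to 4 (1.42, SE 0.0927, adjusted p 4.6e-06), every KO library being above every control. MCL1 was at 0.07 (adjusted p 0.619), BCL2L13 fell by 0.79 (0.000179) and BAK1 fell by 0.50 (0.0225). The number of BCL2 family genes that rose was 2 without KO replicate 2 or 3, and 6 fell with GC content and length trends removed. Of 28 genes of the ATF4 stress response 10 fell and 2 rose. ATF4 fell by 0.28 (0.022), while ASNS and DDIT3 (CHOP), with 49.3% of exons shared on the same strand and 31.6% overlapped on the other, were at −0.20 and −0.09 and did not pass. The number that fell was 6 without KO replicate 2 or control replicate 4, and 1 rose without any 1 of KO replicates 2 to 4 or control replicates 2 to 4. ATF4 did not pass without KO replicate 2 or 4 or control replicate 4 (−0.27 to −0.26, adjusted p 0.0517 to 0.0709). ATF4 did not pass with GC content and length trends removed (−0.34, adjusted p 0.0514). BAK1 missed the threshold without KO replicate 2 or 3 or control replicate 3 or 4 (−0.50 to −0.45, adjusted p 0.0541 to 0.0718). MDM2 passed without KO replicate 4 (−0.32, adjusted p 0.03). MDM2 passed with GC content and length trends removed (−0.42, adjusted p 8.8e-05).

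Matrix and Wnt genes moved in both directions, as did all genes tested (21.2% rose and 19.9% fell). Of 50 collagen and matrix assembly genes 14 rose and 13 fell (median 0.25). With GC content and length trends removed 12 rose and 17 fell with a median of −0.04. In that fit 3353 of all genes tested rose and 5341 fell, with a median of −0.09. The median of the collagen and matrix list was 0.07 to 0.39 with 1 library left out. COL16A1 rose from 2.03 ± 0.579 to 11.2 ± 3.98 CPM (2.45, adjusted p 0.000177), COL4A1, of basement membranes, fell by 0.69 (0.00827) and PLOD2, a collagen lysyl hydroxylase, fell by 0.89 (0.000171). COL18A1 was at 0.13 (adjusted p 0.793), with 18.5% of its exons overlapped on the other strand, and at −0.41 with GC content and length trends removed (adjusted p 0.0378). Of 43 Wnt genes 14 rose (32.6%) and 7 fell (16.3%). APCDD1L rose from 5.46 ± 0.574 to 26.001 ± 5.18 CPM (2.25, 7.4e-06), WNT5B rose by 1.10 (0.000331), DKK1 fell as above, and the target gene AXIN2 was at −0.13 (adjusted p 0.413, 25.3% of exons shared). With GC content and length trends removed 15 Wnt genes fell. Of 44 V-ATPase and lysosome genes 9 rose (20.5%) and 7 fell (15.9%), close to the shares of all genes tested. ATP6V0A4, the a4 subunit of the proton pump, had 1 to 3 counts in control libraries and 139 to 542 in KO libraries, and no fold is given against counts this low. SQSTM1 (p62) rose by 0.79 (0.00133, 22.4% of its exons overlapped on the other strand). The number of these genes that rose was 5 without KO replicate 3, and 12 fell with GC content and length trends removed.

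Most markers of other cell types were low in these human gene counts. RGS5, PDGFRB, FBLN1, THY1, PMP22, PDGFRA and VWF averaged at least 10 CPM in both groups, and all 7 were also counted in every culture library. Of 18 leukocyte and macrophage markers 4 passed the filter, 8 had at most 3 counts in each of the 8 libraries (3 of them 0 in all), and their summed level was 1.84 to 2.22 CPM in controls and 4.27 to 5.38 CPM in KO tumors, against 0.905 to 3.37 CPM in cultures. MRC1, a mannose receptor of macrophages, was the member that rose, with 2 to 10 counts in control libraries and 64 to 171 in KO libraries (adjusted p 5.2e-05). It also had 0 to 39 counts in culture libraries, which hold KELLY cells alone. The leukocyte gene PTPRC had 0 to 10 counts in control libraries and 0 to 9 in KO libraries. Of 15 endothelial markers 7 were tested, with a sum of 10.5 to 18.3 CPM in controls and 12.8 to 21.8 CPM in KO tumors, and 1 rose and 1 fell. KDR, a receptor of VEGF, fell, with 25 to 41 counts in control libraries and 3 to 12 in KO libraries (adjusted p 0.000595). In culture libraries KDR had 12 to 111 counts. PECAM1 was at 0.0854, 0.0452, 0.0358 and 0.318 CPM in controls and 0.105, 0.633, 0.420 and 1.56 CPM in KO tumors (2.39, adjusted p 0.0356), with overlap. PECAM1 missed the threshold without KO replicate 2, 3 or 4 or control replicate 1, 2 or 3 (1.59 to 2.57, adjusted p 0.0523 to 0.105). Of 10 erythroid markers 5 were at 0 in all 8 libraries, no member passed the filter and their sum stayed at or under 0.502 CPM. Schwann cell markers summed to 29.2 to 34.0 CPM in controls and 28.2 to 32.2 CPM in KO tumors, 2 of 9 tested rose and 2 fell, and SOX10 did not pass the filter. Muscle and skin markers, 3 of 13 tested, summed to 2.89 to 9.67 CPM and 3.54 to 4.31 CPM. The fibroblast and pericyte sum was 8082 to 10327 CPM in controls and 2477 to 3087 CPM in KO tumors, nearly all of it RGS5, a regulator of G protein signaling known from pericytes. RGS5 was at 10207, 7902, 8668 and 9338 CPM in control replicates 1 to 4 and 2872, 2283, 2756 and 2939 CPM in KO replicates 1 to 4 (−1.73, adjusted p 9.9e-06). The cell cultures, which hold KELLY cells alone, also had a sum of 4496 to 11335 CPM for this list. Of the 12 members of this list tested 4 rose and 2 fell (median 0.32). PDGFRB, a growth factor receptor of pericytes, rose from 58.9 ± 11.4 to 88.99 ± 16.6 CPM (0.59, 0.0154) and THY1 from 20.9 ± 3.14 to 29.3 ± 5.06 CPM (0.49, 0.0266), both with overlap, while FBLN1 fell by 0.59 (0.0303). PDGFRB did not pass without KO replicate 3 (0.53, adjusted p 0.0676). THY1 missed the threshold without KO replicate 1, 2 or 3 or control replicate 1 or 2 (0.35 to 0.49, adjusted p 0.0503 to 0.104). FBLN1 did not pass without KO replicate 2 or 3 or control replicate 2, 3 or 4 (−0.64 to −0.55, adjusted p 0.0537 to 0.0748). The fibroblast gene DCN did not pass the filter. How mouse reads were treated is not given in the sources used here, and their part in the sums was not tested.

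In culture, doxycycline acts on cells of the same line without the mouse. All cultures share 1 culture time in the labels, while the time on doxycycline food is not given for the tumors. The lengths of exposure are therefore not matched between the sets, and the part of this in the differences was not tested. The culture and tumor sets were counted in separate tables, and the share of small and ribosomal RNA was 0.717% to 1.55% in culture. Without ribosomal RNA it was 0.000812% to 0.00271% in culture and 6.69% to 17.6% in tumors. For this reason only effects within a set were compared, and the part of this difference in the results was not tested. In the EV line, which has no hairpin, 14 of 14905 genes (0.0939%) passed the threshold between doxycycline and DMSO. The tumor effect differed from the EV effect for 4665 of 16302 genes (28.6%), 2029 with a higher (12.4%) and 2636 with a lower value (16.2%) in tumors. The split changed with the scaling, with 2299 higher and 2092 lower by RLE, and was 2474 and 2431 without control replicate 1. MYCN, PLXNA4, STMN1 and PHGDH were at 0.07, −0.21, −0.06 and 0.35 in EV, and for each of them the difference passed (adjusted p 2.9e-05, 3.0e-07, 7.1e-07 and 1.4e-05).

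The tumor effect differed from that of the shAMB hairpin in culture for 694 of 16396 genes (4.23%), 440 with a higher (2.68%) and 254 with a lower value (1.55%) in tumors. With shAMB, 66.0% of genes passed the threshold between doxycycline and DMSO. The number that differed depended on single libraries, with 4059 without KO replicate 1, 2570 without control replicate 1, 315 to 443 without KO replicate 2 or 3 or control replicate 3 or 4, and 220 to 383 without any 1 of the 6 shAMB libraries. The split turned round with some of them, to 126 higher and 189 lower without KO replicate 2, to 2010 and 2049 without KO replicate 1, and to 128 and 255, 92 and 154, and 89 and 132 without shAMB doxycycline replicates 1, 2 and 3. Of the 24 genes with the largest changes, 5 differed. PCDH19 was at −2.71 in tumors and −1.52 with shAMB (adjusted p of the difference 0.0114), LCP1 at −2.34 and −1.44 (0.0344), PPP1R3B at −2.12 and −1.15 (0.0122), CLSTN2 at −2.06 and −1.16 (0.00913), and ABCG1 at 2.83 and 0.78 (9.2e-05). Other genes had opposite signs. CCND1 was at −0.46 in tumors and 0.42 with shAMB (difference adjusted p 0.000595), GATA2 at −0.69 and 0.45 (0.0408), CD44 at 1.15 and −0.11 (0.0336), and GFRA2, a co-receptor of neurturin, at −0.53 and 0.82 (0.00655). For BCL2 (1.42 and 0.94, 0.00708), FBL (−0.65 and −0.06, 0.0375), CBFA2T2 (1.02 and 0.22, 0.000856), DCX (2.10 and 0.84, 0.00982) and ACAT2 (−1.55 and −0.50, 0.00276) the tumor effect was the larger in size, and for MAOA (−1.01 and −1.72, 0.0113) and INSM2 (−0.30 and −0.89, 0.00187) the culture effect was. GFRA2 missed the threshold without KO replicate 2 or control replicate 3 or 4 (−0.52 to −0.42, adjusted p 0.0653 to 0.0895). MYCN was at 1.46 and 1.57, with a difference adjusted p of 0.983.

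**Figure D5:**
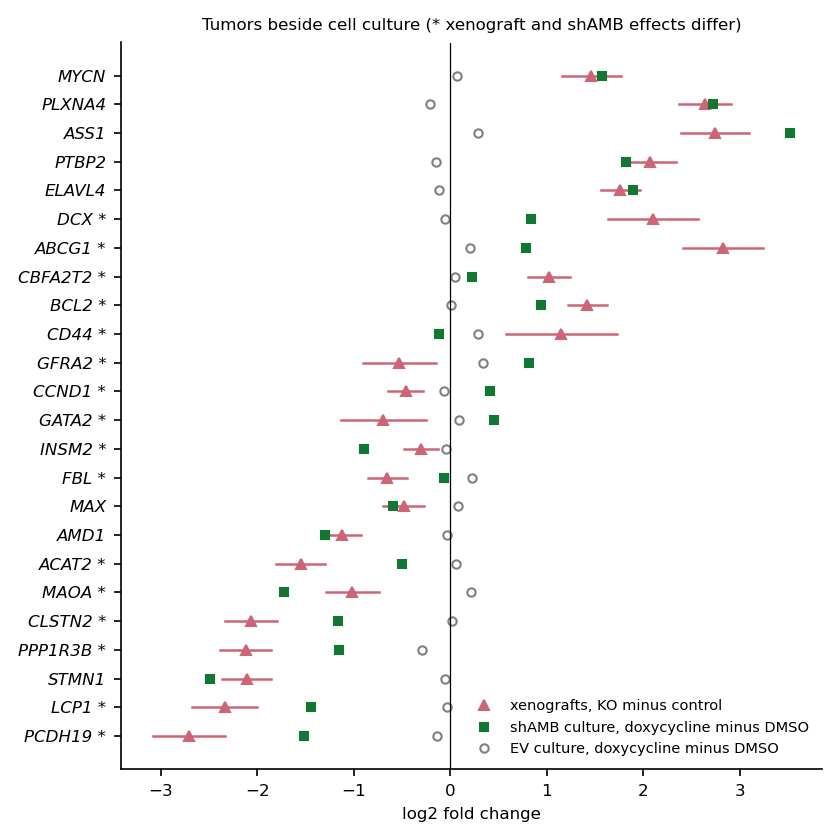
Log2 fold changes of 24 genes chosen from those named in the text, in xenografts (triangles, KO minus control, with 95% confidence intervals, n = 4 each) and in shAMB (squares) and EV (open circles) cultures (doxycycline minus DMSO, n = 3 each, intervals not drawn). A star marks genes whose xenograft and shAMB effects differed (adjusted p under 0.05), and all EV values drawn lie between −0.30 and 0.34.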

How the data were processed

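Expression was measured as RNA-seq of 8 KELLY xenografts and 18 KELLY cultures. The authors deposited RSEM expected counts per gene for 26485 genes in each of 2 tables, and TPM values that were not used here. The submitters' processing notes name STAR, SAMtools, RSEM and hg38, and, for these libraries, versions and the treatment of mouse reads are not given in the sources used here. Columns marked Neg and Pos in the culture table were read as DMSO and doxycycline. Groups come from the labels.

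Expected counts were rounded, filtered with filterByExpr, scaled by TMM and tested with edgeR 4.0.16 (R 4.3.3) by two-sided quasi-likelihood tests with Benjamini-Hochberg adjustment and one mean per group, the xenografts alone or with the EV or shAMB cultures for differences of effects. DESeq2 1.42.0 was an alternative. Depth was 47346063 to 62378060 counts per xenograft, and replicates differed by 27.5 to 248 times sampling noise (chi-square per degree of freedom). GC content and exon overlap came from GENCODE v44 (24535 symbols matched), and promoters from RefSeq. SciPy 1.17.1 gave exact tests.

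The members and gene lists were chosen with earlier results of these data known. The naming rule takes the 12 largest rises and falls at a mean of at least 10 CPM without overlap, a few core genes of each list, and in each list the 2 largest rises and falls at a mean of at least 5 CPM. It selects 237 genes, of which those not described stand in the counts, and CDK4, MCM7 and some cell type markers were added after their values were seen. Some of the genes it selects are not reported here. The fits were tested on simulated data. Alternatives covered scaling, filters, the tool, GC content and length, small RNA genes, the replicate block and leaving out each library.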

Additional observations from a re-analysis of the deposited data

Results flagged for a closer look

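In 21 of 364 groups of 4 libraries tested, for the genes named and for shares of small RNA, 1 library lay farther from the others than Dixon's critical value allows. Chance gives this in about 1 of 20 groups, which is close to the share seen, so that any single case below can be chance. KO replicate 1 stood apart as the highest of its group for BCL2L13, at 58.6 CPM against 43.7 to 45.8 CPM in the other 3. For CA9 it was at 1.36 CPM against 0.218 to 0.317 CPM in the other 3. For DANCR it was at 25.9 CPM against 20.3 to 20.6 CPM in the other 3. For DKK1 it was at 7.72 CPM against 3.75 to 4.33 CPM in the other 3. For SHMT2 it was at 88.4 CPM against 33.5 to 39.2 CPM in the other 3. KO replicate 1 stood apart as the lowest of its group for PTBP2, at 182 CPM against 247 to 253 CPM in the other 3. KO replicate 4 stood apart as the highest of its group for GATA3, at 48.2 CPM against 31.1 to 33.4 CPM in the other 3. For MXD1 it was at 16.4 CPM against 13.1 to 13.5 CPM in the other 3. KO replicate 4 stood apart as the lowest of its group for ALK, at 84.7 CPM against 102 to 105 CPM in the other 3. For COL16A1 it was at 5.19 CPM against 12.96 to 13.5 CPM in the other 3. For THY1 it was at 21.8 CPM against 31.2 to 32.3 CPM in the other 3. Control replicate 1 stood apart as the highest of its group for IFIT1, at 8.09 CPM against 6.29 to 6.37 CPM in the other 3. For VIM it was at 19.5 CPM against 14.97 to 15.6 CPM in the other 3. Control replicate 1 stood apart as the lowest of its group for FBLN1, at 45.6 CPM against 62.7 to 65.3 CPM in the other 3. Control replicate 2 stood apart as the lowest of its group for ACAT2, at 83.6 CPM against 109 to 111 CPM in the other 3. For CDK2 it was at 56.5 CPM against 68.9 to 70.8 CPM in the other 3. For EIF3F it was at 71.6 CPM against 85.5 to 88.02 CPM in the other 3. For INSM2 it was at 378 CPM against 421 to 429 CPM in the other 3. For KDM1A it was at 414 CPM against 495 to 511 CPM in the other 3. For ODC1 it was at 719 CPM against 896 to 930.0 CPM in the other 3. Control replicate 3 stood apart as the highest of its group for DDB2, at 6.91 CPM against 6.42 to 6.47 CPM in the other 3.

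For 27 of the genes named, the effect in tumors differed from that of the shAMB hairpin in culture by edgeR's test of the difference, with p-values adjusted over 16396 genes. The tumor effect was higher than the culture effect for ABCG1 (2.16, 9.2e-05), BCL2 (0.60, 0.00708), CBFA2T2 (0.91, 0.000856), CD44 (1.38, 0.0336) and CDKN1A (1.30, 0.0217), each with the difference on the log2 scale and its adjusted p. Further such genes were DCX (1.38, 0.00982), INSM2 (0.71, 0.00187), JUND (0.91, 0.0431), MAOA (0.82, 0.0113) and NEFL (0.75, 0.0271). Further such genes were PMP22 (0.77, 0.0429). The tumor effect was lower than the culture effect for ACAT2 (−0.93, 0.00276), ALK (−0.79, 0.00708), CCND1 (−0.76, 0.000595), CDK4 (−0.54, 0.0346) and CLSTN2 (−0.79, 0.00913), each with the difference on the log2 scale and its adjusted p. Further such genes were FBL (−0.48, 0.0375), GATA2 (−1.03, 0.0408), GFRA2 (−1.23, 0.00655), GFRA3 (−1.25, 0.0282) and JARID2 (−0.38, 0.0433). Further such genes were LCP1 (−0.78, 0.0344), MCM7 (−0.64, 0.0408), PCDH19 (−1.07, 0.0114), PPP1R3B (−0.85, 0.0122) and VGF (−1.19, 0.0491). Further such genes were VWF (−2.64, 0.000507). The count of such genes over the whole table depended on single libraries (220 to 4059 with 1 left out), and the cause was not tested.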

How the results depend on the processing

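Of 3040 values of the 179 genes named under 17 alternatives, 2922 kept their side of the threshold, and those past it kept their direction. Values past the threshold in neither fit count among these whatever their sign, as for TH (−0.179 to 0.656). Another 77 no longer passed and 40 passed newly. The last 1 passed with the opposite sign, namely COL18A1 with GC content and length trends removed (−0.41, adjusted p 0.0378, against 0.13). The count of changed genes was 6530 with RLE scaling, 6607 without a filter, 5737 with a mean of at least 1 CPM, 6822 with DESeq2, 6623 without small RNA genes, 4961 to 7078 with 1 library left out, and 2002 (1487 higher) when a fold of at least 2 was also asked. With alternatives chosen after seeing the data it was 8646 with the GC content trend alone removed and 7560 without the 3 libraries of strongest GC trend. The deviations of libraries with the same replicate number correlated at −0.497, −0.0134, 0.374 and −0.145, so the numbers are not taken to pair the samples. With the replicate block 4929 genes changed, 3196 differed from the EV effect and 128 from the shAMB effect (694 without it). With 1 library left out, 3634 to 5618 genes differed from the EV effect and 220 to 4059 from the shAMB effect, and 933 differed from the latter with a mean of at least 1 CPM. The cause of these moves was not tested. The small RNA share differed by 0.788 percentage points (−0.626 to 3.25 with 1 library left out). The mitochondrial mRNA share, and the small RNA share without mitochondrial ribosomal RNA, were not run, since the tables used here list no such genes. Depth limits low genes, and 4 libraries a group cannot give an exact p under 0.0286.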
